A study of Mus musculus with 16 samples.

Results

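This report follows 8 genes that mark the enteric nervous system, Elavl4, Uchl1, Snap25, Tubb3 and Vip for neurons and Gfap, S100b and Sox10 for glia, out of 24940 genes counted in mouse ileum. They were picked by gene symbol, with earlier results of these data known, and were followed across all 16 RNA-seq libraries. The study examined the loss of BCL6 in hepatocytes and its effect on bile acid signalling between liver and ileum. Whole pieces of terminal ileum next to the cecum were taken from C57BL/6 mice in 4 groups of 4 libraries: male Bcl6 fl/fl (WT), male Bcl6 LKO, female Bcl6 fl/fl and female Bcl6 LKO. Both genotypes carry the floxed Bcl6 alleles, and LKO mice also carry Albumin-Cre, whose promoter is active in hepatocytes, so the ileum was sampled as a tissue with intact Bcl6. Ages are not given in the labels, and the methods state only that mice were fed ad libitum or fasted briefly unless stated otherwise. Nothing in the labels says that libraries of a group came from separate cages or days, so the p-values measure the spread between these libraries.

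The enteric nervous system lies within the gut wall, as ganglia between the muscle layers and in the submucosa. Its neurons set motility, secretion and blood flow, and its glia surround neuron cell bodies and fibres and reach into the mucosa. Neurons and glia both arise from neural crest cells that depend on SOX10 and on RET signalling to colonise the gut. The neurons are few among the cells of a full-thickness piece, which is mostly epithelium and muscle. In such bulk RNA a lower level of a neuron gene can reflect fewer neurons or less RNA per neuron, and these cannot be told apart.

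Elavl4 encodes HuD, a neuronal RNA-binding protein. UCHL1 (PGP9.5) is a deubiquitinase used to stain enteric ganglia. TUBB3 is the neuronal beta-tubulin recognised by the TuJ1 antibody. SNAP25 is a SNARE protein of synaptic vesicle release, and VIP is a secreted peptide of inhibitory motor and secretomotor neurons. GFAP is an intermediate filament, S100B a calcium-binding protein and SOX10 a transcription factor of enteric glia.

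The promoter windows of Uchl1, Tubb3 and Vip are shown because the first and second of these genes were lower in males while the third was not. The sequences are from RefSeq on GRCm38.p6 (mm10), run 5′ to 3′ on the gene's strand from 250 bases before to 50 after the start, and match the transcript start in the count table within 11 bases. Capitals mark TGACG (part of a cAMP response element), CAGCTG (an E-box), GGGCGG (a GC box) and TATAAA on either strand.
Uchl1 (chr5:66675871-66676170, + strand): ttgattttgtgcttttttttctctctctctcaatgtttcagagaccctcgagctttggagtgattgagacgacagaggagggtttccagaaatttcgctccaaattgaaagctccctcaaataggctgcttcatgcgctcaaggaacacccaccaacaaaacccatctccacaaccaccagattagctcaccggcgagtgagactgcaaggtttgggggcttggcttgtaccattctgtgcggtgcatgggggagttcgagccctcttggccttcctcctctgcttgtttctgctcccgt
Tubb3 (chr8:123411303-123411602, + strand): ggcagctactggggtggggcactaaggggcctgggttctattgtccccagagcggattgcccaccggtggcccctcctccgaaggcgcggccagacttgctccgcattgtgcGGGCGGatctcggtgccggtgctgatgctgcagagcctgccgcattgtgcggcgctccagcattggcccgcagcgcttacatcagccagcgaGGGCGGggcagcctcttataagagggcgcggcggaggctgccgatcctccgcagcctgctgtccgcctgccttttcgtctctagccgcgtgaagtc
Vip (chr10:5638968-5639267, + strand): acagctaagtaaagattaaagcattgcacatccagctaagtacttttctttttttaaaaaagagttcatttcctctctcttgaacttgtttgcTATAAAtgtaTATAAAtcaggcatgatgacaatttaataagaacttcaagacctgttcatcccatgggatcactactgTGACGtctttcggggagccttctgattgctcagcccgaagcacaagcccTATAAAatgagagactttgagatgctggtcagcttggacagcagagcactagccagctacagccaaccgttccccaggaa

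Windows were read for 6 of the 8 genes (not Snap25 or Sox10). The 3 sequences differ in composition. The Tubb3 window is 67.3% G or C with 26 CG pairs, the Uchl1 window 50.7% with 9, and the Vip window 41.7% with 4, against a median of 52.7% over 32851 windows. The Tubb3 window holds GGGCGG at 2 places, a motif found in 35.7% of all windows. In the Vip window TATAAA stands at 3 places, the nearest starting 30 bases before the start site, and 13.6% of all windows hold that motif. The Vip window also holds TGACG, found in 20.8% of all windows, starting 79 bases before the start. Only TGACG and CAGCTG were marked in the Elavl4 window, and none of the marked motifs was found in the Uchl1, Gfap and S100b windows. The full TGACGTCA, which contains TGACG, was in none of the 6 windows and in 1.79% of all windows. TTCAGCACC, a piece of the neuron-restrictive RE1 element, and ACAAAG, a SOX motif, were also searched on both strands and not found in the 6 windows, and were in 0.371% and 18.7% of all windows. GGACAG, the other RE1 piece, was in the Tubb3 and Vip windows and in 22.2% of all windows.

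Depth, as the sum of gene counts, was 60.3 M counts for female LKO replicate 1 and ranged from 15.7 to 20.5 M for the other 15. Fabp6, the ileal bile acid binding protein, lay between 2692 and 5425 normalised counts per M counts (CPM) in every library, and the epithelial gene Vil1 between 2337 and 3139 CPM. Bcl6 itself was read in all libraries, at 15.9 ± 1.61 CPM in male WT, 18.9 ± 2.05 in male LKO, 12.1 ± 2.92 in female WT and 20.7 ± 5.03 in female LKO (SD, n = 4), so the ileum offers no check of the hepatic deletion. Summed B cell markers stood apart in 4 libraries, at 344 CPM in female LKO replicate 3, 182 in female LKO replicate 2, 105 in male WT replicate 2 and 61.9 in female WT replicate 3. Replicate libraries differed by more than counting error in all 24 within-group pairs (chi-square per degree of freedom 8.84 to 29.4).

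All 8 genes were detected in every library, from the 23 counts of Gfap in male LKO replicate 3 to the 1520 counts of Vip in the deepest library. In reads per kilobase of the counted transcript, scaled to library size (RPKM), Vip was the most abundant at 15.4 ± 2.61 (SD, n = 16). Uchl1 followed at 10.8 ± 2.13 RPKM, Tubb3 at 5.59 ± 1.36 and Snap25 at 4.48 ± 0.917. The glia genes were lower, S100b at 1.34 ± 0.249, Sox10 at 1.15 ± 0.285 and Gfap at 0.826 ± 0.230 RPKM, and Elavl4 was lowest at 0.790 ± 0.270. Vip exceeded Uchl1, Uchl1 exceeded Tubb3 and Snap25 exceeded S100b in 16 of 16 libraries, and Tubb3 exceeded Snap25 in 14 and Sox10 exceeded Gfap in 15. The neighbours S100b and Sox10, and likewise Gfap and Elavl4, kept their order in only 11 of 16 libraries, and their mean log2 differences of 0.24 and 0.09 were below the SD of those differences, 0.36 and 0.49.

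Among the neuron genes, Uchl1 (chr5:66676121-66687234, mm10, + strand) was read at 9.70, 11.2, 9.72 and 11.9 CPM in male WT and at 11.3, 13.3, 9.53 and 9.16 in male LKO. In females it was read at 13.8, 14.2, 9.38 and 13.9 CPM in WT and at 15.5, 16.6, 12.9 and 15.04 in LKO. Apart from female WT replicate 3, every female library was above at least 7 of the 8 male libraries, so the sexes overlapped through that library and through male LKO replicate 2. Reads of Uchl1os, an antisense gene that overlaps it, averaged 0.103 CPM.

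Tubb3 (chr8:123411564-123422010, + strand) stood at 7.67, 9.44, 8.88 and 9.14 CPM in male WT and at 7.99, 8.91, 4.85 and 7.71 in male LKO. Its female libraries gave 10.1, 12.3, 7.52 and 13.1 CPM in WT and 11.3, 12.4, 9.05 and 13.2 in LKO. Every LKO female lay above every LKO male, while the WT females and WT males overlapped through female WT replicate 3.

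Snap25 (chr2:136713450-136782428, + strand) was read at 9.44, 8.48, 6.80 and 9.70 CPM in male WT and 11.2, 9.27, 5.61 and 6.73 in male LKO. Female values were 11.7, 10.4, 8.29 and 11.5 CPM in WT and 10.6, 11.1, 8.54 and 12.1 in LKO. All 4 groups overlapped, and male LKO held both a high and the lowest library.

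Elavl4 (chr4:110203737-110287511, − strand) had 28 to 215 counts per library and the widest relative spread of the 8 genes, a coefficient of variation of 34.2%. It was read at 1.72, 2.17, 2.64 and 4.31 CPM in male WT and 3.15, 3.41, 1.64 and 1.81 in male LKO. Females gave 3.27, 3.74, 2.41 and 4.22 CPM in WT and 3.47, 4.64, 2.75 and 5.21 in LKO. The groups overlapped, with male WT replicate 4 above most females.

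Vip (chr10:5639218-5647616, + strand) was read at 20.1, 22.6, 18.3 and 23.1 CPM in male WT and 28.7, 25.05, 23.8 and 27.4 in male LKO. In female WT it was read at 23.1, 20.3, 14.8 and 29.7 CPM and in female LKO at 24.6, 25.8, 19.9 and 26.2. Male LKO lay above male WT in all libraries by a narrow margin, and Vip was the only one of the 8 genes whose male genotypes did not overlap, which held for 2.97% of all genes tested. Female WT spanned the values of all other groups.

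Among the glia genes, S100b (chr10:76253836-76261319, + strand) stood at 2.42, 1.85, 1.91 and 1.54 CPM in male WT, 2.44, 2.15, 1.87 and 1.55 in male LKO, 2.41, 2.75, 2.30 and 2.85 in female WT and 2.76, 2.57, 2.13 and 2.02 in female LKO. Its groups overlapped. Sox10 (chr15:79154913-79164490, − strand) was at 2.73, 2.93, 2.70 and 3.03 CPM in male WT and 2.04, 3.77, 2.34 and 2.43 in male LKO. In females it was at 2.47, 4.74, 2.14 and 3.79 CPM in WT and 3.65, 3.73, 3.88 and 3.56 in LKO. Female WT split into 2 high and 2 low libraries, whereas female LKO was tight.

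Gfap (chr11:102887336-102897200, − strand) was at 2.12, 2.30, 2.64 and 2.57 CPM in male WT and 1.58, 2.45, 1.34 and 1.35 in male LKO. In females it was at 1.61, 2.81, 2.52 and 1.54 CPM in WT and 2.47, 3.66, 2.36 and 2.44 in LKO. Thus 3 of 4 male LKO libraries lay below all male WT libraries, and replicate 2 of male LKO lay inside the WT range.

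**Figure D1:**
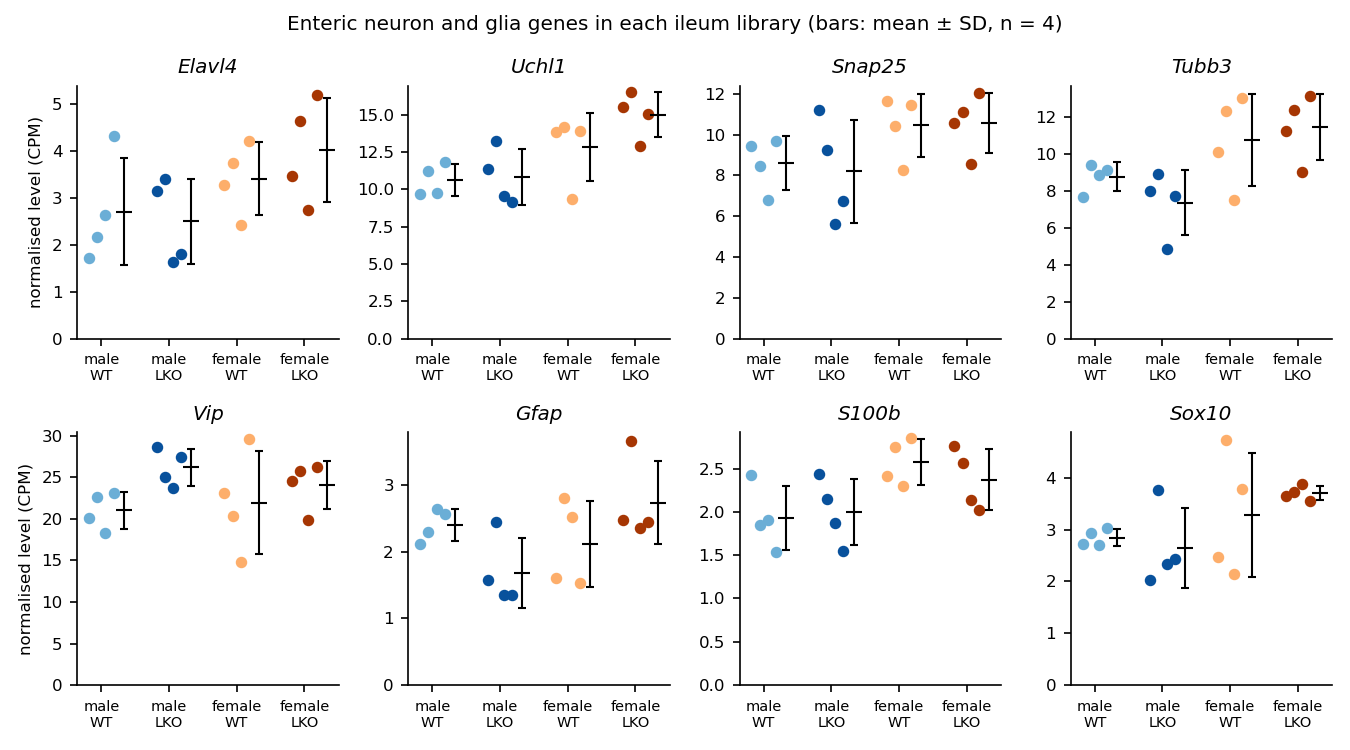
Normalised levels in CPM (y axis, starting at 0) of the 8 genes in each of the 16 libraries, by group on the x axis, with points for libraries and bars for the mean ± SD of 4. Uchl1 and Tubb3 sit lower in males than in most females, and Vip sits higher in male LKO (23.8 to 28.7 CPM) than in male WT (18.3 to 23.1 CPM).

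Deletion of hepatic Bcl6 was first compared within males. None of the 8 genes passed the adjusted threshold of 0.05 in edgeR's quasi-likelihood test, in which 0.0527% of 15169 genes did, and DESeq2 called none of them either (0.415% of genes). At an unadjusted p below 0.05, which 5.29% of genes reached, there were 2. Vip was 0.32 higher on the log2 scale in LKO (SE 0.095, edgeR adjusted p = 0.508) and Gfap 0.52 lower, at -0.52 (SE 0.24, adjusted p = 0.930), and with log2 CPM of the muscle gene Myh11 as a covariate Gfap was at -0.28 (SE 0.27, adjusted p = 0.998). The other log2 fold changes lay between -0.25 for Tubb3 (SE 0.16) and 0.06 for S100b (SE 0.23). Of the smooth muscle markers 10 of 12 were negative in male LKO, without any passing the test. Their summed levels were 4551 ± 528 CPM in LKO (SD, n = 4, 3770 to 4934) and 4818 ± 133 in WT (4629 to 4933). A single library, male LKO replicate 3, was far lower than the rest in Myh11. It had 743 CPM, against 932 to 1025 in the other LKO libraries and 974.5 to 1091 in WT. The part of muscle in these values was not tested.

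In females the count of genes called among the 8 was again 0 in edgeR (0.0392% of 15298 genes) and 0 in DESeq2 (1.01%), where 4 of the 8 had no adjusted p. No gene of the 8 reached an unadjusted p below 0.05, against 11.7% of genes. The largest difference was that of Gfap, at 0.35 (SE 0.24, adjusted p = 0.568), followed by Uchl1 at 0.23 (SE 0.13, adjusted p = 0.510) and Elavl4 at 0.23 (SE 0.23, adjusted p = 0.707). The WT and LKO females overlapped for all 8 genes, while 6.31% of all genes did not overlap. Of the 8 genes, 7 had a positive fold change and S100b a negative one (-0.10, SE 0.18), and the median was 0.16 beside 0.007 over all genes. Without female WT replicate 3, the female library lowest in Vip and Uchl1, 4 of 8 were positive and the median was 0.002.

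Over both sexes with sex as a covariate, 0 of the 8 genes were called by edgeR (0.269% of 15598 genes) or by DESeq2 (1.44%), where 4 of the 8 again had no adjusted p. Vip alone reached an unadjusted p below 0.05, as did 11.2% of genes, at 0.23 (SE 0.11, adjusted p = 0.441). The remaining 7 lay between -0.07 for Tubb3 (SE 0.13) and 0.13 for Uchl1 (SE 0.099).

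Whether the genotype difference itself differed between males and females was tested as an interaction. None of the 8 genes passed it with edgeR or DESeq2, and neither tool called any gene at all (0.00% for edgeR and 0.00% for DESeq2). Gfap had the largest value, -0.88 (SE 0.34, unadjusted p = 0.0180, adjusted p = 0.845), its male difference being negative and its female difference positive. It was the only one of the 8 at an unadjusted p below 0.05, which 5.64% of genes reached, and its adjusted p ranged from 0.478 to 1.00 over the 28 alternative settings. Leaving out any 1 library kept the Gfap value between -1.11 and -0.72. The Vip interaction was 0.18 (SE 0.22, adjusted p = 0.905).

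**Figure D2:**
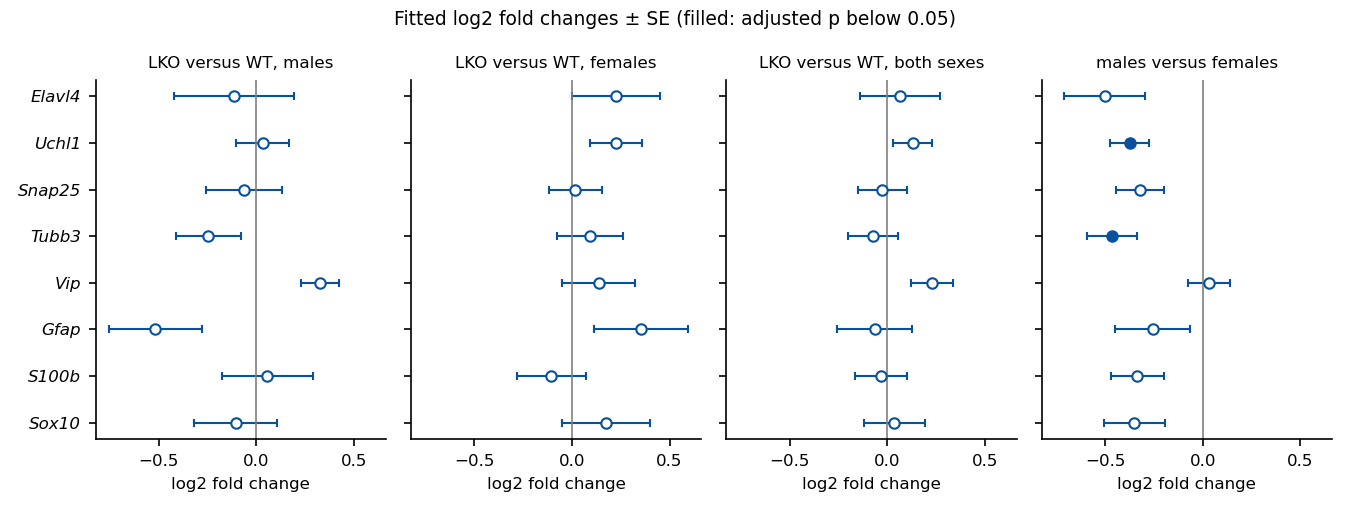
Fitted log2 fold changes (x axis) with SE bars for the 8 genes in 4 comparisons, with filled points for an adjusted p below 0.05. Uchl1 (-0.37) and Tubb3 (-0.47) in males against females are the 2 filled points, and in that panel Vip (0.03) lies at 0 while the other 7 genes lie below it.

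Males were then compared with females over both genotypes. With genotype as a covariate, Uchl1 was lower in males at -0.37 (SE 0.099, edgeR adjusted p = 0.0224) and Tubb3 at -0.47 (SE 0.13, adjusted p = 0.0284). These were 2 of the 8 genes, where 11.0% of all genes were called and 5.44% were called lower in males. DESeq2 called the same 2 genes, with adjusted p = 0.00514 for Uchl1 and 0.00739 for Tubb3, beside 15.4% of all genes. At an unadjusted p below 0.05 stood 6 of the 8 genes and 29.3% of all genes.

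The remaining neuron genes did not pass. Elavl4 was at -0.50 (SE 0.21, adjusted p = 0.113), Snap25 at -0.32 (SE 0.13, adjusted p = 0.0962) and Vip at 0.03 (SE 0.11, adjusted p = 0.870). The glia genes were at -0.35 for Sox10 (SE 0.16, adjusted p = 0.146), -0.33 for S100b (SE 0.13, adjusted p = 0.107) and -0.26 for Gfap (SE 0.19, adjusted p = 0.385). Thus 7 of the 8 were negative, with a median of -0.34 beside -0.0013 over all genes. With upper-quartile scaling 8 of 8 were negative, and the split of all called genes moved from 875 higher and 848 lower in males to 424 and 1197, with the median of all genes at -0.04.

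Within 1 genotype neither gene passed the threshold. In WT libraries alone Uchl1 was at -0.28 (SE 0.14, adjusted p = 0.377) and Tubb3 at -0.30 (SE 0.16, adjusted p = 0.404), and no gene of the 8 separated WT males from WT females, as 8.38% of genes did. In LKO libraries alone Uchl1 was at -0.47 (SE 0.13, adjusted p = 0.0914) and Tubb3 at -0.64 (SE 0.18, adjusted p = 0.0926), and Tubb3 was the only one of the 8 whose LKO males and females did not overlap, as 12.9% of genes did not. Single libraries decided the calls as well. Tubb3 no longer passed without male WT replicate 1 (adjusted p = 0.0516), female WT replicate 2 (0.0555), female WT replicate 4 (0.0509) or female LKO replicate 1 (0.0501), and Uchl1 without male LKO replicate 3 (0.0504). Snap25 passed without male LKO replicate 1 (0.0478) and Elavl4 without male WT replicate 4 (0.0350).

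Smooth muscle genes moved with the neuron genes between the sexes. All 12 measured muscle markers were negative in males and 11 were called lower, among them Acta2 at -0.38 (SE 0.078, adjusted p = 0.00818) and Des at -0.45 (SE 0.10, adjusted p = 0.0147). Their summed level was 4629 to 4933 CPM in male WT and 3770 to 4934 in male LKO, against 4998 to 7215 in female WT and 5219 to 7031 in female LKO. Of 8 epithelial markers 3 were higher in males, Krt20 at 0.32 (SE 0.057, adjusted p = 0.00363), Vil1 at 0.16 (SE 0.050, adjusted p = 0.0435) and Epcam at 0.14 (SE 0.042, adjusted p = 0.0405). When log2 CPM of Myh11, the smooth muscle myosin heavy chain, was added as a covariate, Uchl1 was at -0.21 (SE 0.12, adjusted p = 0.506) and Tubb3 at -0.24 (SE 0.15, adjusted p = 0.567), and genes called in all fell from 1723 to 18. Myh11 itself was lower in males (-0.30, SE 0.084, adjusted p = 0.0287), so this covariate is not independent of sex. Without the 4 libraries high in B cell markers, Uchl1 stood at -0.46 (SE 0.096, adjusted p = 0.0141) and Tubb3 at -0.59 (SE 0.13, adjusted p = 0.0163).

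**Figure D3:**
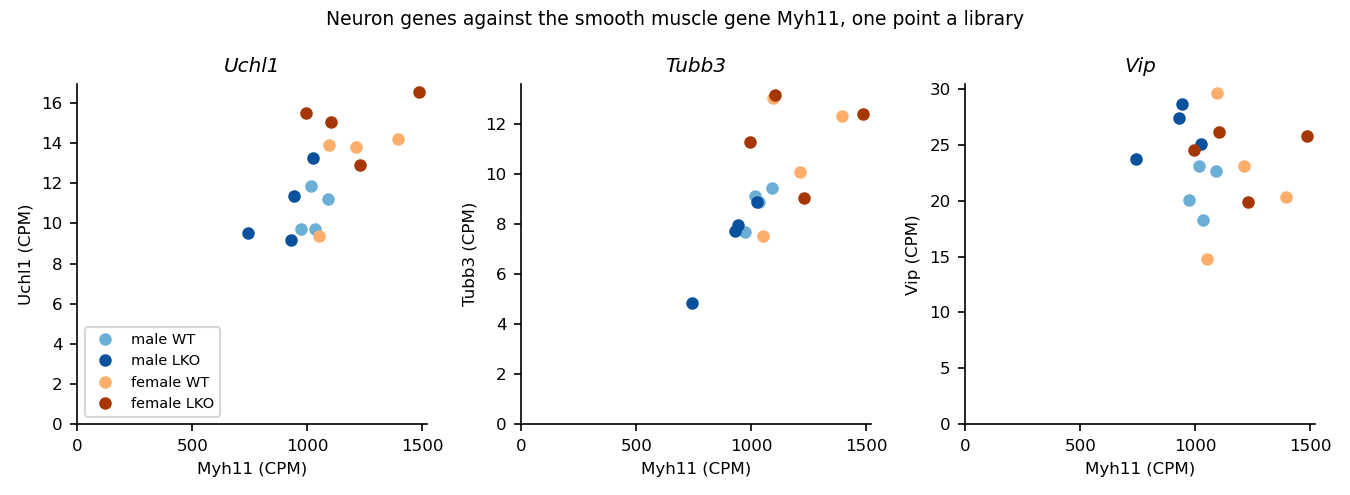
Levels of Uchl1, Tubb3 and Vip (y axes, CPM) against Myh11 (x axis, CPM) with 1 point for each of the 16 libraries, coloured by group. Uchl1 and Tubb3 are higher where Myh11 is higher, male LKO replicate 3 is lowest in both Myh11 (743 CPM) and Tubb3 (4.85 CPM), and Vip shows no such slope.

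Vip was then set against each other neuron gene within the same library, a ratio that library scaling cannot change. These ratios were chosen after the levels were seen and restate them, so they are given as a description with no test. The ratio of Vip to Uchl1 in CPM had a geometric mean of 2.20 in males (1.88 to 2.99) and 1.64 in females (1.43 to 2.13). For Vip to Tubb3 the means were 2.95 in males (2.06 to 4.90) and 2.07 in females (1.65 to 2.28), for Vip to Snap25 2.85 and 2.17, and for Vip to Elavl4 9.51 and 6.26. The ranges of the sexes overlapped for all 4 ratios.

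Within males, the ratio of Vip to Tubb3 was 2.81 to 4.90 in LKO and 2.06 to 2.62 in WT. The ratio to Uchl1 was 1.89 to 2.99 in LKO and 1.88 to 2.07 in WT, that to Snap25 2.56 to 4.24 and 2.13 to 2.69, and that to Elavl4 7.35 to 15.1 and 5.37 to 11.7. The male genotypes overlapped for these 3 ratios.

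Other genes of enteric neurons were read from lists of structural and regulatory genes, synaptic vesicle proteins, transmitters and receptors, with lists of other glial genes and of RET and endothelin signalling. None of the neural and glial genes in these 6 lists passed the test between WT and LKO within males, within females, over both sexes or as an interaction with edgeR. An unadjusted p below 0.05 was reached by 4 of 72 tested in males, 7 of 72 in females, 10 of 75 over both sexes and 4 of 75 in the interaction, beside 5.29%, 11.7%, 11.2% and 5.64% of all genes, and DESeq2 called 0, 1, 0 and 0 of them, the 1 being Penk in females. With Myh11 as a covariate 12 of 72 reached an unadjusted p below 0.05 in males, beside 742 of all 15169 genes. None of the 72 passed the adjusted threshold. Among the most abundant, per kilobase, were the adhesion gene L1cam at 23.3 RPKM, the granin Scg2 at 12.0 and the filament gene Prph at 6.65. Vamp2, the vesicle partner of SNAP25, stood at 39.1 RPKM and Rab3a at 7.81. Sst (44.2 RPKM), Tac1 (16.2) and Gal (12.2) led the peptides. Peptide RNA in a whole piece need not come from neurons alone, somatostatin for example being also made by epithelial endocrine cells.

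Between the sexes, 2 of 16 tested other neuronal genes were lower in males and none higher. Among them was Hand2 (-0.37, SE 0.11, adjusted p = 0.0388), a transcription factor of enteric neuron development. The list was negative for 15 of 16 genes with a median of -0.27. All 14 tested synaptic vesicle genes were negative and 5 were called lower, led by the complexin Cplx1 (-0.67, SE 0.16, adjusted p = 0.0136) and the calcium sensor Syt1 (-0.41, SE 0.11, adjusted p = 0.0284), with a list median of -0.29. These are counts beside the 5.44% of all genes that were lower in males. DESeq2 called 5 of the 16 and 6 of the 14. With Myh11 as a covariate the genes called lower in the 6 neural and glial lists went from 15 of 75 to 0. The muscle markers went from 11 to 0, and Myh11 is itself among them, so its own call could not remain. Over all 15598 genes those called lower went from 848 to 6, so the loss is not particular to these lists.

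Of 16 tested transmitter and neuropeptide genes, 5 were lower in males and none higher. Grp, gastrin-releasing peptide, had the largest difference (-1.26, SE 0.28, adjusted p = 0.0108), then Nmu, neuromedin U (-1.15, SE 0.26, adjusted p = 0.0125). The list median was -0.30, and Tac1, at 0.14 (SE 0.13, adjusted p = 0.526), was among the 3 positive genes. Among 11 tested receptors only Adcyap1r1, a receptor of the VIP-related peptide PACAP, was called (-0.32, SE 0.10, adjusted p = 0.0438). Vipr1, the VIP receptor most abundant here at 38.5 RPKM, stood at 0.05 (SE 0.043, adjusted p = 0.453), and the nicotinic subunit gene Chrnb4 and the muscarinic receptor gene Chrm2 had 2.81 and 2.38 RPKM.

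The other glial genes gave no call between the sexes. Of 8 tested, 7 were negative with a median of -0.20. The most abundant were Erbb3 at 54.1 RPKM, Entpd2 at 18.6 and Scn7a at 1.62, and Erbb3, which gut epithelium also expresses, was the positive one (0.26, SE 0.11, adjusted p = 0.124). Sox2 and Foxd3 averaged below 0.5 CPM. Of 10 RET and endothelin signalling genes, 2 were called lower in males, the GDNF-family coreceptors Gfra1 (-0.38, SE 0.12, adjusted p = 0.0470) and Gfra2 (-0.32, SE 0.097, adjusted p = 0.0391). Signs in this list were mixed, 6 negative and 4 positive. Edn3 was at 0.33 (SE 0.12, edgeR adjusted p = 0.0894), and DESeq2 called it higher in males (adjusted p = 0.0322). Ece1 (33.7 RPKM), Edn3 (24.7) and Ednrb (8.91) were the most abundant of that list, and its median was -0.14.

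Markers of neighbouring cells were read beside these. The interstitial cell genes Kit (-0.23, SE 0.052, adjusted p = 0.0119) and Ano1 (-0.23, SE 0.060, adjusted p = 0.0194), which mark the pacemaker cells of the muscle layer, were lower in males, whereas Pdgfra (13.7 RPKM) and P2ry1 (8.31) did not pass. Kit was also the interstitial gene called lower in LKO over both sexes (-0.25, SE 0.052, adjusted p = 0.0470). Chgb, a granin of endocrine cells at 43.1 RPKM, was lower in LKO over both sexes (-0.30, SE 0.061, adjusted p = 0.0458), in the list led by Sct (72.2 RPKM) and Gcg (66.2). Without a Myh11 covariate DESeq2 gave adjusted p = 0.00246 for Kit and 0.00288 for Chgb in that comparison. With Myh11 as a covariate edgeR called no interstitial or endocrine gene between genotypes over both sexes, and all genes called went from 42 to 28. The list medians hardly moved, at -0.10 without and -0.10 with it for interstitial genes and -0.13 and -0.14 for endocrine genes. Nts was the endocrine gene called higher in males (0.23, SE 0.067, adjusted p = 0.0347). None of 5 mesothelial genes (Upk1b, Upk3b and Msln the most abundant), 5 tuft cell genes (Avil, Trpm5 and Dclk1) or 7 B cell genes (Cd79a and Cd79b among them) passed between the sexes. Actg2 (388 RPKM), Acta2 (379) and Tagln (344) led the muscle list and Krt8 (2242), Krt20 (1436) and Epcam (1084) the epithelial list.

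**Figure D4:**
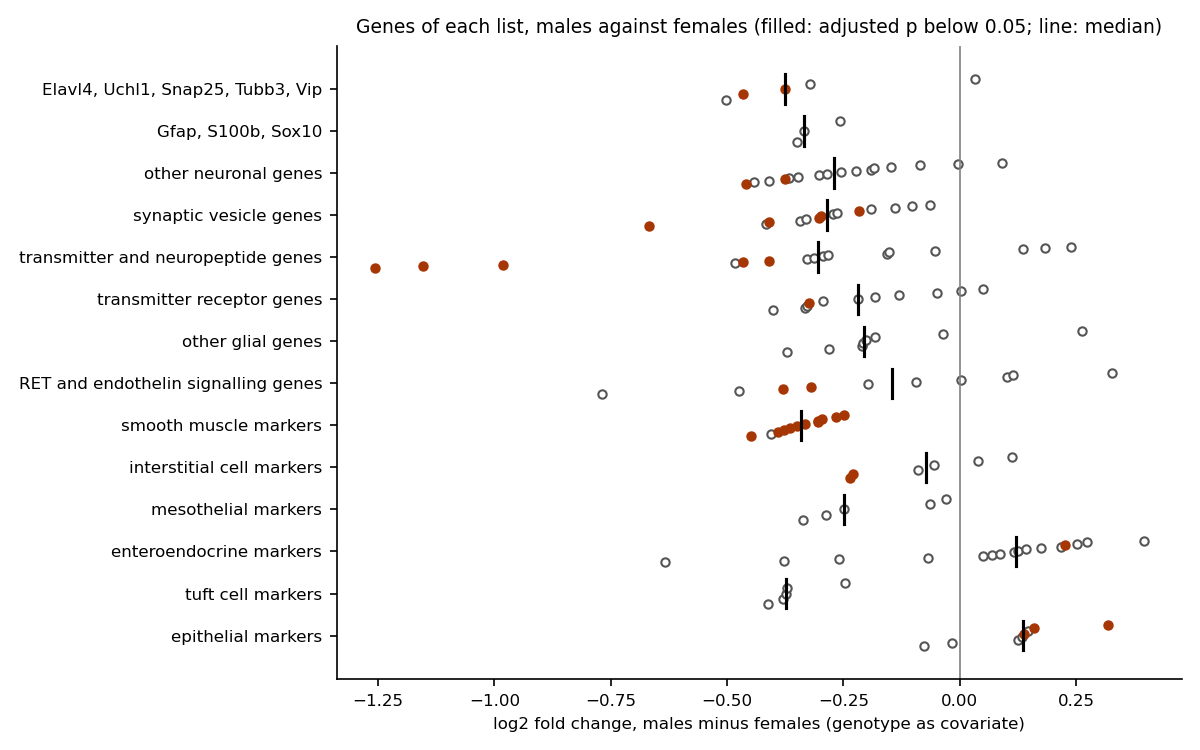
Log2 fold changes of males minus females (x axis) for the tested genes of each list (rows), with filled points for an adjusted p below 0.05 and a line at each list's median. Neuron, vesicle, glia and smooth muscle rows lie mostly left of 0, with medians between -0.20 and -0.37, and the epithelial row lies mostly right of it. The leftward position is not particular to those rows. Mesothelial and tuft cell rows lie wholly left of 0, with medians of -0.25 and -0.37 and no filled point. B cell markers are not drawn.

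Variation between single ileal pieces was described by correlating log2 CPM over the 16 libraries, first overall and then after removing the 4 group means. The family held 44 relations, the 28 pairs of the 8 genes and each gene with Myh11 and with Chga, the endocrine granin. The neuron genes other than Vip varied together, with overall Pearson's r from 0.78 to 0.84 for their 6 pairs. Elavl4 and Uchl1 had r = 0.84 (rho = 0.86, permutation adjusted p = 0.00176 and 0.00154), and 0.77 within groups (rho = 0.75, permutation adjusted p = 0.0311 and 0.0554). For Uchl1 and Tubb3 r was 0.82 (rho = 0.89, permutation adjusted p = 0.00110 and 0.000880), and 0.77 within groups (rho = 0.70, permutation adjusted p = 0.0384 and 0.0774). Elavl4 and Tubb3 gave 0.82 overall (rho = 0.85, permutation adjusted p = 0.00110 and 0.00191) and 0.75 within groups (rho = 0.77, permutation adjusted p = 0.00528 and 0.0101). With the 2 most extreme libraries of the first gene left out, these 3 overall values were 0.80, 0.81 and 0.77.

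For Vip the overall values were lower. Its r with Snap25 was 0.34 overall (rho = 0.46, permutation adjusted p = 0.302 and 0.180), and within groups 0.63 (rho = 0.70, permutation adjusted p = 0.0311 and 0.0706). With Tubb3 it was 0.26 overall and 0.70 within groups (permutation adjusted p = 0.427 and 0.0599). All 10 within-group values among neuron genes lay between 0.55 and 0.77, of which 4 had an adjusted p below 0.05 by Pearson's r and 1 by Spearman's rho.

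The glia genes, at 23 to 226 counts per library, gave lower values among themselves. Gfap and Sox10 had r = 0.54 overall and 0.38 within groups (permutation adjusted p = 0.0782 and 0.529), and without the 2 farthest libraries the within-group value was -0.25. S100b and Sox10 gave 0.37 and 0.19, and Gfap and S100b 0.18 and 0.14. Between neurons and glia, Uchl1 and Sox10 had the highest overall value, 0.74 (rho = 0.70, permutation adjusted p = 0.00694 and 0.0179), with 0.62 within groups (permutation adjusted p = 0.246). Vip and Gfap had the lowest value of the 28 pairs, -0.40 overall and -0.37 within groups (permutation adjusted p = 0.209 and 0.567), and it did not pass.

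Against Myh11 the overall r was 0.77 for Tubb3 (rho = 0.71, permutation adjusted p = 0.00566 and 0.0179), 0.67 for Uchl1 (rho = 0.64, permutation adjusted p = 0.0145 and 0.0414), 0.65 for Gfap and 0.62 for Sox10. Without the 2 libraries farthest in Myh11 the Tubb3 value was 0.55 and the Gfap value 0.33. For Vip r with Myh11 was -0.11. Within groups none of the 8 genes passed with Myh11 (0.10 to 0.59). With Chga the overall values ran from -0.31 to 0.19, and none passed.

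**Figure D5:**
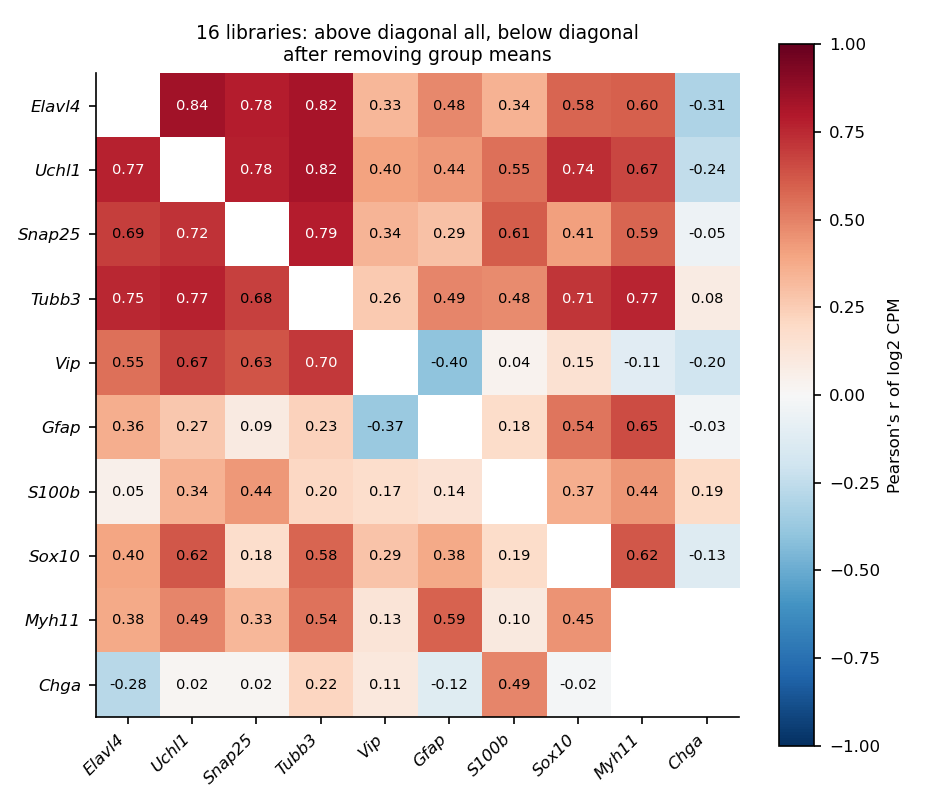
Pearson's r of log2 CPM over 16 libraries between the 8 genes, Myh11 and Chga, with overall values above the diagonal and values after removing group means below it. The block of Elavl4, Uchl1, Snap25 and Tubb3 is 0.78 to 0.84 above the diagonal and 0.68 to 0.77 below it. Values with Chga run from -0.31 to 0.19 above the diagonal and from -0.28 to 0.49 below it, and none passed.

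The genes most alike to each of the 8 were listed by Pearson's r over the 16 libraries among 14424 genes with a mean of at least 1 CPM, as a description without a test. For Uchl1 they were Hspb8 (0.94), Ndn (0.94) and Cdh2 (0.93), and for Tubb3 they were Vat1l (0.94), Ank1 (0.94) and Ptn (0.92). Snap25 was followed by Rims1 (0.93), Cap2 (0.91) and Jph4 (0.90), where RIMS1 is a protein of the presynaptic active zone. Elavl4 was nearest to Adamtsl3 (0.88), Hspb8 (0.87) and Meg3 (0.87). The nearest genes to Vip reached lower values, 1700088E04Rik (0.81), Nr2e3 (0.78) and Kbtbd13 (0.78). Among the glia genes, Sox10 was nearest to Scarf2 (0.88), Syt15 (0.84) and Ppp1r12c (0.82), Gfap to Dpysl4 (0.86), Ttll1 (0.82) and Mir147 (0.81), and S100b to Tmem198b (0.83), Kcna2 (0.82) and Prelp (0.81).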

How the data were processed

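Total RNA from terminal ileum was made into stranded poly-A libraries and sequenced as single-end reads. The authors aligned reads to mm10 with STAR 2.5.2, keeping uniquely mapped reads, and counted them over exons with HOMER 4.10 with 1 transcript kept per gene. The deposited table holds whole-number read counts, with no scaling for library size. The strand option of the counting is not given in the sources used here. Every per-sample column was used. Groups and replicate numbers came from the sample titles.

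Counts were tested on all genes with edgeR 4.0.16 (R 4.3.3, TMM scaling, filter by group, robust quasi-likelihood F-test), p-values being adjusted by Benjamini-Hochberg over all genes tested with a threshold of 0.05, and only the neuron and glia genes and lists were read. SE was the log2 fold change divided by the root of F. Genotype was tested within each sex with 8 libraries, and over both sexes, as an interaction and between sexes with 16. The step was tested on simulated data with larger differences than any of the 8 genes showed, so that test does not cover differences of their size. CPM used TMM library sizes over all 16 libraries, RPKM used the transcript length in the table, and correlations used log2 CPM with a prior count of 2 and 100000 permutations (scipy 1.17.1), shuffled within groups for the within-group values. Alternatives were DESeq2 1.42.0, RLE and upper-quartile scaling, no filter, at least 10 counts in every library, the newer quasi-likelihood method, a non-robust fit, a replicate block, the title number, thinning of the deepest library and leaving out each library. Chosen after seeing the data were a Myh11 covariate, leaving out the 4 libraries high in B cell markers, and each genotype alone.

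The 8 genes and all gene lists were chosen with earlier results of these data known, so no pattern here is independent support for those results. Of other lists the 3 genes with the highest mean RPKM were named, with up to 2 higher and 2 lower called genes in each comparison, and for each of the 8 genes the 3 genes most alike in profile. Fabp6, Bcl6, Sox2, Foxd3, Penk and Phox2a, named beyond this rule, were added after their values were seen. Some genes that the rule names are not reported here. The lists were structural, synaptic vesicle, transmitter, receptor, glial, RET and endothelin genes, and markers of smooth muscle, interstitial, mesothelial, enteroendocrine, tuft, epithelial and B cells.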

Additional observations from a re-analysis of the deposited data

Results flagged for a closer look

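Among 32 sets of 4 libraries (8 genes in 4 groups), 2 held a library that stood apart by Dixon's ratio, and chance alone gives about 1 in 20. Uchl1 in female WT replicate 3 was 9.38 CPM, below the other 3 libraries at 13.8 to 14.2, with a gap of 0.921 of the range. Gfap in female LKO replicate 2 was 3.66 CPM, above the others at 2.36 to 2.47, with a gap of 0.914 of the range. The first library was also the lowest of its group in Elavl4, Snap25, Tubb3, Vip, S100b and Sox10. That library held 61.9 CPM of summed B cell markers and 1052 CPM of Myh11, the lowest Myh11 of its group, and their part in these levels was not tested. The second held 182 CPM of summed B cell markers and 1485 CPM of Myh11, the highest Myh11 of all libraries, and their part in its Gfap level was not tested.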

How the results depend on the processing

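Between genotypes and in the interaction, none of the 8 genes was called under any setting run. Between the sexes 2 were called, and 0 with the title number (whose meaning the labels do not give) or Myh11 as covariate and in WT or LKO libraries alone, the last 2 using 8 libraries each. Leaving out 1 library gave 1 to 3. The replicate number did not pair the libraries (same-numbered libraries correlated at -0.46 to 0.33, and not every library correlated best with its own number), and the replicate block gave 3 called genes between the sexes, Snap25 being added, and 0 elsewhere.

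Signs of uncalled values turned in places, and the cause was not tested. In males every LKO library had a higher title number than every WT library. A male fit with that covariate therefore cannot cleanly separate it from genotype, and no conclusion is drawn from its values. In males the title number gave 0.10 for Elavl4 and 0.28 for Snap25, and Myh11 gave 0.22 for Elavl4, 0.16 for Snap25, 0.072 for Tubb3 and 0.065 for Sox10. In females Sox10 was -0.024 without the 4 libraries high in B cell markers. Over both sexes the title number gave 0.092 for Snap25, 0.10 for Gfap and 0.093 for S100b, and sets of neighbouring title numbers gave -0.12 for Elavl4, 0.19 for Gfap, 0.058 for S100b and -0.071 for Sox10. There Myh11 gave 0.014 for Snap25, 0.0011 for Tubb3 and 0.044 for Gfap, and leaving out the 4 libraries gave -0.032 for Elavl4 and -0.066 for Sox10. The Snap25 interaction was 0.025 with the title number. Between sexes Vip was -0.0045 with upper-quartile scaling, -0.022 with the title number, -0.10 without the 4 libraries and -0.070 in WT alone, and Gfap was 0.12 with Myh11 and 0.17 in WT alone.

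Leaving out 1 library moved male values over -0.29 to 0.21 for Elavl4, -0.078 to 0.10 for Uchl1, -0.25 to 0.075 for Snap25, -0.054 to 0.19 for S100b and -0.32 to 0.0038 for Sox10. Female values ran from -0.077 to 0.10 for Snap25, -0.043 to 0.20 for Tubb3 and -0.011 to 0.32 for Vip. Over both sexes they ran from -0.020 to 0.21 for Elavl4, -0.10 to 0.042 for Snap25, -0.15 to 0.0080 for Tubb3, -0.17 to 0.012 for Gfap, -0.085 to 0.017 for S100b and -0.054 to 0.13 for Sox10. The Snap25 interaction ran from -0.28 to 0.055 and the Vip sex difference from -0.032 to 0.12. Signs held but values moved by over 1.5 times for Tubb3 in males (-0.35 to -0.095), for Gfap (0.20 to 0.52), Uchl1 (0.10 to 0.29), Elavl4 (0.079 to 0.35) and S100b (-0.21 to -0.037) in females, for Uchl1 over both sexes (0.060 to 0.17), for the Vip interaction (0.0035 to 0.34) and for Gfap between sexes (-0.35 to -0.16).

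Counts of all genes called moved by more than 1.5 times, from 8 to between 3 and 63 in males, from 6 to between 0 and 155 in females, from 42 to between 0 and 224 over both sexes and from 1723 to between 15 and 2401 between the sexes. In the interaction 1 gene was called without female WT replicate 1. The median within-group r over the 28 pairs was 0.39, 0.39 with RLE scaling and 0.39 with a prior count of 0.5. Glia genes, with as few as 23 counts in a library, had SEs of 0.13 to 0.34. These are not limits of detection, as larger differences also went uncalled, such as Gfap at -0.88 (SE 0.34) in the interaction.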

Other observations

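Among other neuropeptide genes, Penk, the enkephalin precursor of excitatory motor neurons, was chosen after its values were seen. It was read at 4.71, 5.396, 3.51 and 6.14 CPM in female WT and at 8.55, 10.02, 7.98 and 7.55 in female LKO, and no library overlapped between the genotypes, as for 6.31% of all genes. Its log2 fold change was 0.79 (SE 0.17, edgeR adjusted p = 0.163, DESeq2 adjusted p = 0.00442). In males Penk stood at 5.15, 4.46, 6.13 and 5.03 CPM in WT and 4.73, 7.77, 3.27 and 6.52 in LKO, which overlapped, and the interaction was -0.68 (SE 0.30, edgeR adjusted p = 0.845).

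Phox2a, a transcription factor of autonomic and enteric neurons, was likewise chosen after its values were seen. It had 0.505, 0.638, 0.787 and 0.462 CPM in male WT and 0.967, 1.49, 0.935 and 1.29 in male LKO, without overlap, as for 2.97% of all genes (log2 fold change 0.98, SE 0.31, edgeR adjusted p = 0.595). The male WT libraries held 15.7 to 20.0 M counts, so few reads stand behind these low levels. In females it had 1.09, 0.826, 0.658 and 1.10 CPM in WT and 0.953, 1.40, 0.899 and 0.797 in LKO, which overlapped.

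Male LKO replicate 3 was the lowest library of all in Elavl4, Snap25 and Tubb3, and it also had the lowest Myh11 (743 CPM), while its Vip (23.8 CPM) lay above every male WT library.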
